A study of Mus musculus with 10 samples.

Results

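Thermogenic adipocyte genes are a set of 10 genes by which brown and beige fat cells are recognised: Ucp1, Cidea, Ppargc1a, Ppargc1b, Dio2, Cox7a1, Cox8b, Prdm16, Cpt1b and Ebf2. They were taken by symbol from a table of 23930 gene targets, and 9 of the 10 had a row; Cpt1b is not analysed here. They were followed in epididymal white adipose tissue, a depot of visceral fat beside the epididymis, of male C57BL/6 mice that were 18 weeks old. Of the mice, 5 were Srgn-/-, without serglycin, and 5 were Srgn+/+. All 10 had spent 8 weeks on a high sucrose/high fat diet, so no comparison with lean fat can be made. Serglycin is a proteoglycan of the secretory granules of blood-derived cells. The labels give neither the construction of the Srgn allele nor the litters of the animals. Each library is taken as 1 animal, and libraries are numbered 1 to 5 within a genotype, which pairs no animals.

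Brown fat cells burn fatty acids to make heat: UCP1 lets protons back through the inner mitochondrial membrane without making ATP. Cold acts through noradrenaline and cyclic AMP, which raise transcription of Ucp1, Ppargc1a and Dio2. Beige cells are fat cells within white depots that switch on the same programme, and mouse epididymal fat is known as a depot that does so little.

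Each gene was read at 1 short amplicon, so a level is compared between libraries within 1 gene and never from gene to gene. Libraries held 8176075 to 10128049 reads in Srgn-/- fat and 7824764 to 10757779 reads in Srgn+/+ fat. Levels are CPM (reads per 1000000 reads of the library) after scaling by trimmed mean of M-values (TMM). The Srgn amplicon had 0 to 12 reads in Srgn-/- libraries and 776 to 1301 reads in Srgn+/+ libraries. Fat cell markers were high in all 10 libraries, with summed levels of 20 genes of 59031 to 82108 CPM in Srgn-/- fat and 60666 to 89660 CPM in Srgn+/+ fat. RNA of the epididymis was uneven. The summed level of 29 epididymis and testis genes was 7621 CPM in Srgn-/- 3, 1153 CPM in Srgn-/- 5 and 1368 CPM in Srgn+/+ 4, against 7.64 to 194 CPM in the other 7 libraries. The fold changes of the tested thermogenic genes are therefore also given without these 3 libraries, which leaves 3 Srgn-/- and 4 Srgn+/+ animals.

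Promoter sequence, credited to RefSeq on build GRCm38.p6 and matched by symbol, was used for 6 of the 9 genes with a row. These were Ucp1, Ppargc1a, Dio2, Cox7a1, Cox8b and Prdm16. No promoter sequence was used for Cidea, Ppargc1b or Ebf2, so the motif matches below do not cover them. The 250 bases before the start of Dio2, Cox7a1 and Cox8b are shown. The levels of Cox7a1 and of Dio2 each correlated with Cox8b over the animals past the threshold of 0.05 by Pearson's r, as given below. Dio2 and Cox7a1 had r = 0.54 with each other and did not pass. The windows of Dio2, Cox7a1 and Cox8b lie, in that order, at chr12:90739039-90739288 on the minus strand, chr7:30183921-30184170 on the plus strand and chr7:140900447-140900696 on the minus strand. Capitals mark TGACG, the half-site of the cyclic AMP response element, on either strand.
Dio2: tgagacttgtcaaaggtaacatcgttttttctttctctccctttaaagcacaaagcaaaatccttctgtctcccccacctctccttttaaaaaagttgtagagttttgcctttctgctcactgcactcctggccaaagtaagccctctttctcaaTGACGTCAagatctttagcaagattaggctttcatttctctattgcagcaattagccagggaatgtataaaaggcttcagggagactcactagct
Cox7a1: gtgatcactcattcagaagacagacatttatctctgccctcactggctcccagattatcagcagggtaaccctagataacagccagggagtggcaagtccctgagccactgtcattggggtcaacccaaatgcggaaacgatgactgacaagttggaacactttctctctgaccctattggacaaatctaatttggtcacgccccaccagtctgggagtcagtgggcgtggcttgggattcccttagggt
Cox8b: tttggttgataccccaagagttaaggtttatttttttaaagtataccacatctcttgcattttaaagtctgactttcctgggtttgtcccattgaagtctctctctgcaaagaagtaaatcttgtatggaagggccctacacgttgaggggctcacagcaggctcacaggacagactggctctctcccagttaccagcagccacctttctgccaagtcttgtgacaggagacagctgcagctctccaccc
The Dio2 window held 2 overlapping half-sites that form the palindrome TGACGTCA, starting 95 bases before the start. The windows of Ucp1 and Ppargc1a held 1 half-site each, at 147 and 49 bases before the start, and those of Cox7a1, Cox8b and Prdm16 held none. Of 32851 promoter windows of the same length, 17.8% held TGACG. The nuclear receptor half-site AGGTCA stood once, 14 bases before the start of Ucp1, and in 14% of all windows. CCCNNGGG, the core bound by EBF factors, was in none of the 6 windows and in 11.8% of all. These matches describe letters in a window and not sites in use.

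None of the thermogenic genes passed the test between the genotypes. Of the 9 genes with a row, 8 had enough reads to be tested, and Ucp1 did not. By the edgeR quasi-likelihood test with Benjamini-Hochberg adjustment over 12719 genes, 0 of the 8 passed the threshold of 0.05, where 0.00786% of all tested genes did, which is Srgn alone. At an unadjusted p under 0.05 there was 1 of the 8, Cox7a1, against 12.8% of all tested genes. For 0 of the 8 did the genotypes not overlap, against 2.78% of all tested genes. Values were higher in Srgn-/- fat for 7 of the 8 and lower for Prdm16, where 49.7% of all tested genes had higher values. The number with higher values was 5 of the 8 without the 3 libraries with most epididymis RNA, where Ppargc1b and Ebf2 also had lower values, and 5 to 7 leaving out 1 library. In bulk tissue, more cells of a type and more RNA per cell cannot be told apart. The median log2 fold change of the 8 was 0.29, and that of all tested genes was -0.001. The median of the 8 was 0.18 without the epididymis libraries, 0.17 without Srgn-/- 3 and 0.50 with limma-voom and quality weights.

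**Figure D1:**
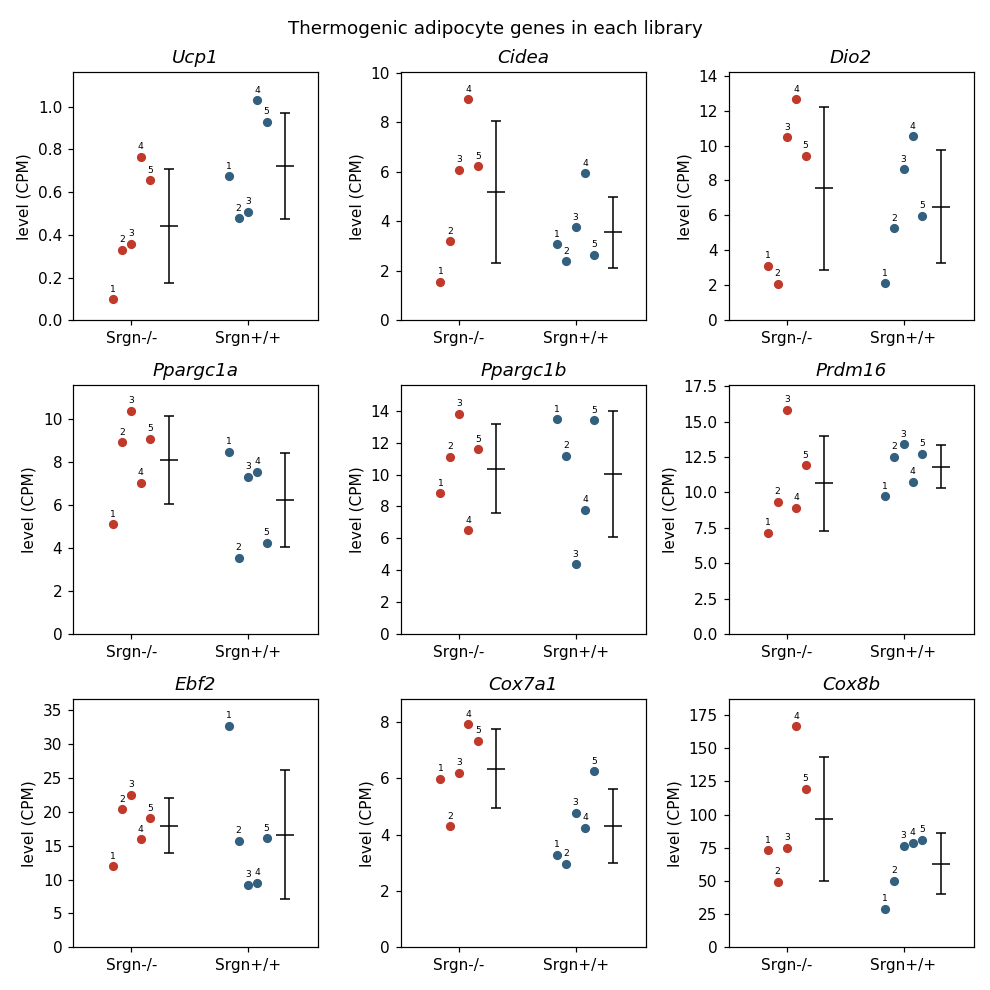
Level in CPM (vertical axes, from 0) of the 9 thermogenic genes in each library, with Srgn-/- in red on the left and Srgn+/+ in blue on the right; numbers are library numbers, and the bar beside each group is the mean ± SD (n = 5). The genotypes overlap in every panel, and Srgn-/- 4 has the highest level of Cidea, Dio2, Cox7a1 and Cox8b.

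Ucp1, the uncoupling protein itself, was close to the lower limit of the measurement. Its amplicon had 1, 3, 3, 6 and 6 reads in Srgn-/- 1 to 5, and 7, 5, 5, 9 and 7 reads in Srgn+/+ 1 to 5. These were 0.098, 0.330, 0.357, 0.765 and 0.656 CPM in Srgn-/- fat, against 0.674, 0.478, 0.508, 1.03 and 0.929 CPM in Srgn+/+ fat. Srgn-/- 1 had the lowest value and Srgn+/+ 4 the highest, and the genotypes overlapped. The level of 3 reads was 0.287 to 0.398 CPM per library, so that 3 Srgn-/- libraries held 3 reads or fewer. Summed over 5 libraries, 19 reads in Srgn-/- fat gave 0.425 CPM (exact 95% Poisson interval 0.256 to 0.664), and 33 reads in Srgn+/+ fat gave 0.702 CPM (0.483 to 0.986). These intervals cover counting error only and leave out the spread between animals, whose reads were summed. The reads were amplified by PCR and carry no molecular identifiers, which the intervals do not allow for. The means were 0.441 ± 0.269 CPM in Srgn-/- fat and 0.724 ± 0.248 CPM in Srgn+/+ fat (SD, n = 5; two-sided exact permutation p = 0.127). Fitted with no low-count filter, the log2 fold change of Ucp1 was -0.71 (SE 0.643; edgeR adjusted p = 0.666). No difference was detected at these read numbers, and the power to detect one was not tested.

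Of 23 other brown and beige marker genes with a row, 15 had enough reads to be tested and 8 did not. Slc36a2, an amino acid transporter, was among the tested ones, with 3588 to 7274 reads in Srgn-/- libraries and 2735 to 7228 reads in Srgn+/+ libraries, while the genes that follow were read at few counts. Zic1, a transcription factor of classical brown fat, had 1 read in Srgn-/- 4 and none in the other 9 libraries. Lhx8, another brown fat transcription factor, had 0 to 3 reads in Srgn-/- libraries and 0 to 5 in Srgn+/+ libraries. Ckmt2, the mitochondrial creatine kinase of muscle and thermogenic fat, had 1 read in each of 2 Srgn-/- libraries and none in Srgn+/+ libraries. Tmem26, used as a beige marker, had 4 to 11 reads in Srgn-/- libraries and 3 to 13 in Srgn+/+ libraries. These 5 genes were chosen after their values were seen.

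Prdm16 and Ebf2 encode transcription factors that set and hold brown fat identity. Prdm16 had 7.16, 9.35, 15.8, 8.93 and 11.9 CPM in Srgn-/- 1 to 5, against 9.72, 12.5, 13.4, 10.8 and 12.7 CPM in Srgn+/+ 1 to 5. Srgn-/- libraries held both the lowest values and the highest one. Prdm16 was the member with the least spread over the 10 libraries, with a coefficient of variation of 22.6% (log2 fold change -0.15, SE 0.204, edgeR adjusted p = 0.778). The highest library, Srgn-/- 3, is the one with most epididymis RNA. The log2 fold change was -0.34 without it, -0.51 without all 3 epididymis libraries and -0.04 without Srgn-/- 1, the lowest library.

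Ebf2 had 12, 20.4, 22.5, 15.9 and 19 CPM in Srgn-/- 1 to 5, against 32.6, 15.7, 9.24, 9.49 and 16.1 CPM in Srgn+/+ 1 to 5. Srgn+/+ 1 stood above the other 9 libraries, while Srgn+/+ 3 and 4 were lowest. The log2 fold change of Ebf2 was 0.11 (SE 0.329, edgeR adjusted p = 0.917), and it was 0.51 without Srgn+/+ 1, -0.05 without Srgn+/+ 3, -0.04 without Srgn+/+ 4 and -0.20 without the 3 epididymis libraries.

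Ppargc1a and Ppargc1b encode coactivators that drive the making of mitochondria. Ppargc1a had 5.10, 8.91, 10.4, 7.02 and 9.07 CPM in Srgn-/- 1 to 5, against 8.47, 3.54, 7.31, 7.55 and 4.25 CPM in Srgn+/+ 1 to 5. Of the Srgn-/- libraries, 3 lay above every Srgn+/+ library, and Srgn-/- 1 ranked 8 of 10 (log2 fold change 0.37, SE 0.274, edgeR adjusted p = 0.586). That log2 fold change was 0.22 without Srgn+/+ 2 and 0.25 without the epididymis libraries.

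Ppargc1b had 8.82, 11.1, 13.8, 6.51 and 11.6 CPM in Srgn-/- 1 to 5, against 13.5, 11.2, 4.37, 7.78 and 13.4 CPM in Srgn+/+ 1 to 5. The genotypes overlapped over most of their range, which began at 6.51 CPM in Srgn-/- fat and 4.37 CPM in Srgn+/+ fat (log2 fold change 0.05, SE 0.296, edgeR adjusted p = 0.961). The direction turned without Srgn-/- 3 (-0.07), Srgn+/+ 3 (-0.14), Srgn+/+ 4 (-0.03) or all 3 epididymis libraries (-0.26). The coactivators ranked some libraries alike and others not, with Pearson's r = 0.015 and Spearman's rho = 0.35 over the 10 libraries. Without Srgn+/+ 2 and 5, the libraries farthest from the Ppargc1a median, r was 0.54. Srgn+/+ 5 ranked 3 for Ppargc1b and 9 for Ppargc1a, and Srgn-/- 3 ranked 1 for both.

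Dio2 encodes the deiodinase that makes active thyroid hormone inside the cell. Its level was 3.14, 2.09, 10.5, 12.6 and 9.40 CPM in Srgn-/- 1 to 5, against 2.12, 5.26, 8.63, 10.5 and 5.97 CPM in Srgn+/+ 1 to 5. It was low in Srgn-/- 1 and 2 and in Srgn+/+ 1, and high in libraries of both genotypes. Dio2 had the widest spread of the 8 tested members, with a coefficient of variation of 54.4%, where its read number alone would give 12.7% (log2 fold change 0.21, SE 0.518, edgeR adjusted p = 0.892). That log2 fold change was -0.05 without Srgn-/- 4, -0.02 without Srgn+/+ 1 and 0.10 without the epididymis libraries.

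Cidea encodes a lipid droplet protein that is abundant in brown fat. Its level was 1.57, 3.19, 6.07, 8.93 and 6.23 CPM in Srgn-/- 1 to 5, against 3.08, 2.39, 3.76, 5.95 and 2.65 CPM in Srgn+/+ 1 to 5. Srgn-/- 3, 4 and 5 lay above every Srgn+/+ library, and Srgn-/- 1 lay below every one. The means were 5.20 ± 2.87 CPM in Srgn-/- fat and 3.57 ± 1.43 CPM in Srgn+/+ fat (SD, n = 5; log2 fold change 0.54, SE 0.419, edgeR adjusted p = 0.609). Srgn-/- 3 and 5 are 2 of the libraries with epididymis RNA, while Srgn-/- 4, the highest of all, had 69.1 CPM of it. The log2 fold change of Cidea was 0.60 without the epididymis libraries and 0.26 without Srgn-/- 4.

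Cox7a1 and Cox8b encode subunits of cytochrome c oxidase in the forms found in heart, skeletal muscle and brown fat; Cox7a2 and Cox8a encode the forms of most other tissues. Cox7a1 had 5.98, 4.29, 6.19, 7.91 and 7.32 CPM in Srgn-/- 1 to 5, against 3.27, 2.96, 4.77, 4.23 and 6.24 CPM in Srgn+/+ 1 to 5. No Srgn+/+ library reached the Srgn-/- mean, but Srgn+/+ 5 lay above 3 Srgn-/- libraries (log2 fold change 0.57, SE 0.249, unadjusted p = 0.0416, edgeR adjusted p = 0.376). Leaving out 1 library gave log2 fold changes of 0.46 to 0.73, and leaving out the epididymis libraries gave 0.50.

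Cox8b had 73.1, 49.3, 75.2, 166 and 119 CPM in Srgn-/- 1 to 5, against 29.1, 50.4, 76.4, 78.9 and 80.9 CPM in Srgn+/+ 1 to 5. Srgn-/- 4 and 5 stood above the rest and Srgn+/+ 1 below it, and the other 7 libraries of both genotypes mixed (log2 fold change 0.62, SE 0.359, edgeR adjusted p = 0.502). The log2 fold change of Cox8b was 0.33 without Srgn-/- 4 and 0.70 without the epididymis libraries. The ubiquitous partners had lower values in Srgn-/- fat and did not pass. Cox7a2 averaged 639.6 ± 40.1 CPM in Srgn-/- fat and 728 ± 46.9 CPM in Srgn+/+ fat (log2 fold change -0.19, edgeR adjusted p = 0.392). Cox8a averaged 19.1 ± 2.87 CPM in Srgn-/- fat and 21.2 ± 1.18 CPM in Srgn+/+ fat (log2 fold change -0.15, edgeR adjusted p = 0.621). Cpt1a, the liver-type carnitine palmitoyltransferase, averaged 169 ± 12.5 CPM in Srgn-/- fat and 175 ± 24.4 CPM in Srgn+/+ fat (log2 fold change -0.05, edgeR adjusted p = 0.862).

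**Figure D2:**
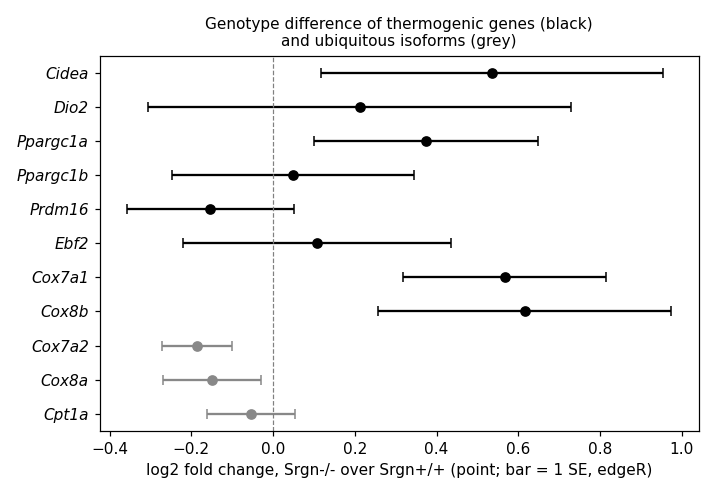
Log2 fold change of Srgn-/- over Srgn+/+ (horizontal axis; bars are 1 SE from edgeR) of the 8 tested thermogenic genes in black and of 3 ubiquitous isoforms in grey. Cox8b (0.62), Cox7a1 (0.57) and Cidea (0.54) lie farthest to the right, and none of the 11 genes passed the threshold.

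The share of the muscle and brown fat isoform was then compared within each library. The log2 ratio of Cox7a1 over Cox7a2, on CPM + 1, was -6.48, -6.79, -6.46, -6.28 and -6.32 in Srgn-/- 1 to 5, against -7.43, -7.50, -6.90, -7.26 and -6.58 in Srgn+/+ 1 to 5. All 5 Srgn-/- libraries lay above the Srgn+/+ mean and 4 lay above every Srgn+/+ library, with Srgn+/+ 5 the only one among the Srgn-/- values. The ratio was -6.47 ± 0.202 in Srgn-/- fat and -7.14 ± 0.387 in Srgn+/+ fat (SD, n = 5), a difference of 0.67 on the log2 scale (SE 0.195) or 1.59-fold higher in Srgn-/- fat. The two-sided exact permutation p was 0.0159, and 0.0317 after Benjamini-Hochberg adjustment over 2 ratios; the smallest p that 5 against 5 allows is 0.00794. The ratio was chosen with the Cox7a1 difference known, so its p is not independent evidence. The two-sided exact permutation test passed in 2 of the 10 fits that leave out 1 library, those without Srgn+/+ 5 or Srgn-/- 2, and gave adjusted p = 0.0635 in the other 8. The smallest unadjusted p that this exact test allows with 4 against 5 is 0.0159. The difference was 0.58 to 0.81 in these 10 fits. With all 10 libraries, it was 0.76 with 0.1 CPM added to each level in place of 1, and 0.47 with 5 CPM added. Without the 3 libraries with most epididymis RNA the difference was 0.58, and an exact test of 3 against 4 cannot go below p = 0.0571.

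The log2 ratio of Cox8b over Cox8a was 1.95, 1.67, 1.85, 3.01 and 2.35 in Srgn-/- 1 to 5, against 0.36, 1.22, 1.93, 1.81 and 1.88 in Srgn+/+ 1 to 5. Srgn+/+ 1 and 2 were lowest, and 3 Srgn-/- libraries lay above every Srgn+/+ library. The difference of 0.73 (SE 0.383) did not pass (two-sided exact permutation p = 0.111, adjusted p = 0.111), and it was 0.46 without Srgn+/+ 1 and 0.86 without the epididymis libraries. Ratios of 2 amplicons show unequal change between libraries and not which of the 2 genes moved.

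**Figure D3:**
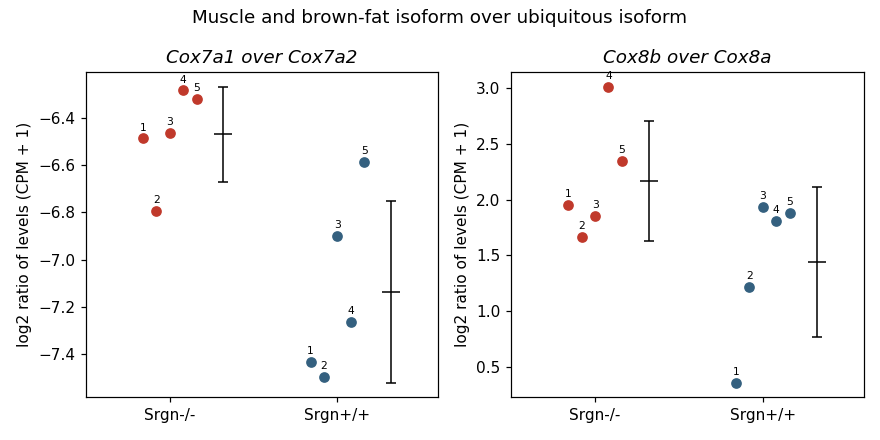
Log2 ratio (vertical axes, CPM + 1) of Cox7a1 over Cox7a2 on the left and of Cox8b over Cox8a on the right in each library, Srgn-/- in red and Srgn+/+ in blue; numbers are library numbers and bars are mean ± SD (n = 5). For Cox7a1 over Cox7a2, 4 Srgn-/- libraries lie above every Srgn+/+ library; for Cox8b over Cox8a, 3 do.

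Both isoforms are also made in skeletal muscle, so muscle markers are given beside them. The summed level of 25 skeletal muscle markers was 133 to 169 CPM in Srgn-/- fat and 105 to 123 CPM in Srgn+/+ fat, with no overlap. Most of it was Myl1, a myosin light chain, at 71.5 to 101 CPM in Srgn-/- fat and 57.8 to 73.1 CPM in Srgn+/+ fat, and Acta1, skeletal actin, at 16.1 to 53.8 CPM in Srgn-/- fat and 10.6 to 26.7 CPM in Srgn+/+ fat. Of 9 tested skeletal muscle markers, 8 had higher values in Srgn-/- fat and 0 passed in edgeR. For 0 of the 9 taken singly did the genotypes not overlap, against 2.78% of all tested genes. Mb, the myoglobin of muscle, had 9 to 24 reads in Srgn-/- libraries and 3 to 11 reads in Srgn+/+ libraries, or 1.61 ± 0.640 CPM in Srgn-/- fat and 0.664 ± 0.342 CPM in Srgn+/+ fat (log2 fold change 1.27, unadjusted p = 0.00954, edgeR adjusted p = 0.260). The defining marker Ckm, muscle creatine kinase, had 0 reads in every Srgn-/- library and 1 read in all Srgn+/+ libraries together. Myh4, a fast myosin heavy chain, had 0 to 2 reads in Srgn-/- libraries and 1 to 4 in Srgn+/+ libraries. Smooth muscle and mural genes summed to 1017 to 1594 CPM in Srgn-/- fat and 862 to 1355 CPM in Srgn+/+ fat, and 10 of 12 tested had higher values. The part of these cells in the Cox7a1 and Cox8b values was not tested.

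Across the 10 animals the members did not rank the libraries alike. Averaged over the 8 tested members, Srgn-/- 3, 5 and 4 ranked highest, with mean ranks of 2.63, 3.13 and 4.38, and Srgn-/- 1 ranked lowest, at 7.88. The Srgn+/+ libraries fell between 5.0 and 7.50. The lowest and the highest animals by these genes were thus both Srgn-/-. Srgn-/- 4 ranked 1 for Cidea, Dio2, Cox7a1 and Cox8b and ranked 9 for Ppargc1b and Prdm16.

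**Figure D4:**
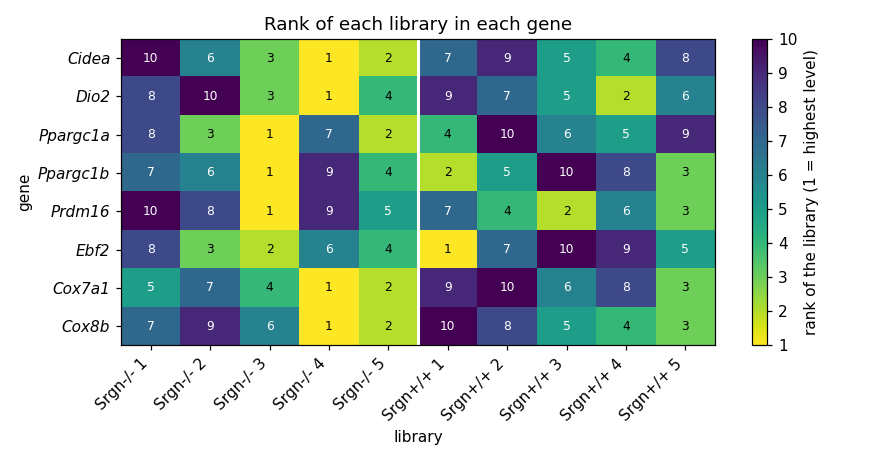
Rank of each library (columns, Srgn-/- left of the white line) in the level of each of the 8 tested genes (rows), where 1 is the highest level of the 10 libraries. Srgn-/- 4 ranks 1 for 4 genes and 9 for Ppargc1b and Prdm16, and Srgn-/- 1 has rank 5 for Cox7a1 and ranks of 7 to 10 for the other genes.

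Among 28 pairs of the 8 members, 20 had a positive and 8 a negative Pearson correlation of log2(CPM + 1) over the 10 libraries. By a two-sided permutation test with 100000 resamples and Benjamini-Hochberg adjustment over the 28 pairs, 2 pairs passed by Pearson's r and 0 by Spearman's rho, where 5 pairs had an unadjusted Pearson p under 0.05. Cox7a1 and Cox8b had r = 0.86 (permutation p = 0.00102, adjusted p = 0.0286) and rho = 0.79 (permutation p = 0.00881, adjusted p = 0.0822). Their r was 0.81 without Srgn+/+ 1 and 2, the libraries farthest from the Cox7a1 median. It was 0.84 on deviations from the genotype means and 0.88 without the 3 libraries with most epididymis RNA. Leaving out 1 library at a time gave r of 0.81 to 0.89.

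Dio2 and Cox8b had r = 0.79 (permutation p = 0.00342, adjusted p = 0.0479) and rho = 0.82 (permutation p = 0.00574, adjusted p = 0.0822). Their r was 0.59 without Srgn-/- 2 and Srgn+/+ 1, so that part of it rests on these 2 animals with the lowest Dio2. It was 0.86 on deviations from the genotype means, 0.84 without the epididymis libraries and 0.71 to 0.85 leaving out 1 library at a time. The number of pairs that passed was 0 without any 1 of Srgn-/- 3, 4 or 5 or of Srgn+/+ 1, 3 or 5, 1 without Srgn-/- 2 or Srgn+/+ 4, and 0 without the 3 epididymis libraries. Cidea and Dio2 (r = 0.77, permutation adjusted p = 0.0817) and Ppargc1b and Ebf2 (r = 0.76, permutation adjusted p = 0.0817) came next and did not pass.

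**Figure D5:**
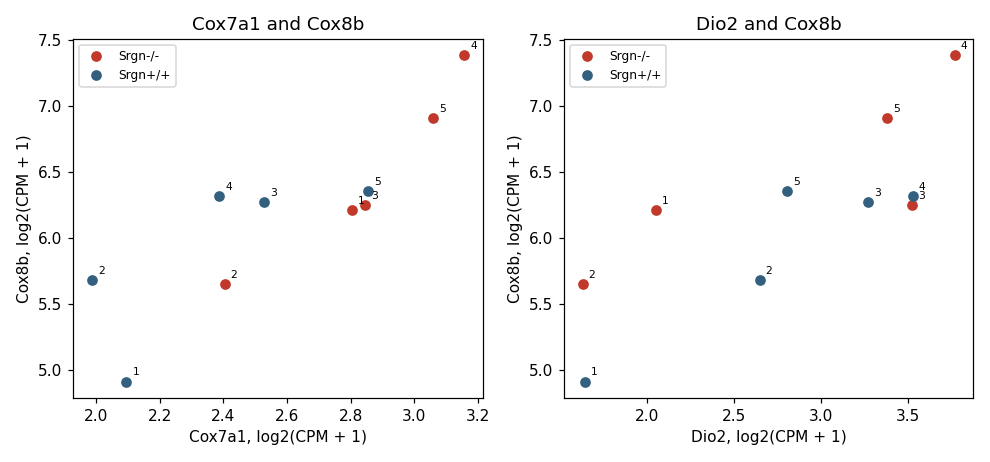
Levels on the log2(CPM + 1) scale of Cox8b (vertical axes) against Cox7a1 on the left and Dio2 on the right, 1 point per library, Srgn-/- in red and Srgn+/+ in blue with library numbers. Srgn+/+ 1 is lowest for Cox8b, Srgn+/+ 2 for Cox7a1 and Srgn-/- 2 for Dio2. Srgn-/- 4 lies at the upper right of both panels, which have r = 0.86 on the left and r = 0.79 on the right.

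Macrophage marker levels also varied widely between the animals. Srgn-/- 2 and Srgn+/+ 1, low for Dio2 and Cox8b, had the lowest summed levels of 20 macrophage genes within their genotypes, 2640 and 2399 CPM, against 2702 to 5506 CPM in the other Srgn-/- libraries and 5047 to 9055 CPM in the other Srgn+/+ libraries. Srgn-/- 3, with 2702 CPM close to Srgn-/- 2, was high for Dio2, at 10.5 CPM. Srgn-/- 1 was low for Dio2 and had the highest macrophage sum of its genotype, 5506 CPM. All 19 tested macrophage genes had lower values in Srgn-/- fat and 0 passed. The part of macrophages in the member values was not tested.

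The genes whose pattern was most like that of Cidea, among 11943 tested genes with a mean of at least 1 CPM, were ranked by Pearson's r of log2(CPM + 1) over the 10 libraries. They were Mgll, the monoglyceride lipase (r = 0.92), Rbp7, a retinol-binding protein (0.92), Acadm, the medium-chain acyl-CoA dehydrogenase of fatty acid oxidation (0.91), Mlycd, malonyl-CoA decarboxylase (0.90), and Synpo, an actin-associated protein (0.89). Rbp7 had 102.9 ± 40.8 CPM in Srgn-/- fat and 84.5 ± 17.8 CPM in Srgn+/+ fat, lowest in Srgn-/- 1 and highest in Srgn-/- 4, as Cidea was. Acadm had 488 ± 95.2 CPM in Srgn-/- fat and 443 ± 39.3 CPM in Srgn+/+ fat. These are the top of a ranking and carry no test. For Ucp1 the same ranking gave Hsdl2, Trmt2b, Fah, Letmd1 and Mettl17 (r from 0.95 to 0.88), on levels that rest on 1 to 9 Ucp1 reads per library.

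Related genes of the thermogenic pathway were read from 5 lists that together had 144 genes with a row and 117 tested. None passed in edgeR, and 15 had an unadjusted p under 0.05, where 12.8% of all tested genes did; 60 of the 117 had higher values in Srgn-/- fat. The DESeq2 Wald test called 3 of them, Slc27a2, Adcy9 and Slc25a4, where it called 1.78% of all genes. The genotypes did not overlap for 1 of 33 tested regulators of transcription and 2 of 19 genes of heat production without UCP1. Of 31 signalling genes, 1 was higher and 1 lower without overlap. The remaining lists had 0 such genes, against 2.78% of all tested genes.

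Of the 15 tested brown and beige marker genes, 9 had higher and 6 lower values (median log2 fold change 0.08). Slc27a2, a fatty acid transport protein, had the smallest p of this list (log2 fold change 1.40, edgeR adjusted p = 0.225; DESeq2 adjusted p = 0.0474). S100b, a calcium-binding protein secreted by beige and brown fat cells, had 6.73 ± 1.13 CPM in Srgn-/- fat and 4.41 ± 1.17 CPM in Srgn+/+ fat (edgeR adjusted p = 0.329). Eva1a is counted in this list by its symbol alone, is not the gene of the brown fat marker Eva1, and is among the 9 with higher values. It had 2.53 ± 1.18 CPM in Srgn-/- fat and 1.27 ± 0.485 CPM in Srgn+/+ fat. Pdk4, a kinase that shuts off pyruvate dehydrogenase, had 80.8 ± 61.5 CPM in Srgn-/- fat and 139.5 ± 62.6 CPM in Srgn+/+ fat (edgeR adjusted p = 0.510).

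Of 33 tested regulators of transcription, 19 had higher and 14 lower values (median log2 fold change 0.04). The smallest p belonged to Hlx, a homeobox factor, with 2.68 ± 0.414 CPM in Srgn-/- fat and 1.68 ± 0.194 CPM in Srgn+/+ fat and no overlap (log2 fold change 0.67, edgeR adjusted p = 0.301). Rb1, the retinoblastoma protein, had 73.0 ± 3.43 CPM in Srgn-/- fat and 62.3 ± 7.16 CPM in Srgn+/+ fat. Bhlhe40, a transcriptional repressor, had 89.8 ± 27.2 CPM in Srgn-/- fat and 65.1 ± 8.85 CPM in Srgn+/+ fat. Ctbp2, a corepressor, had 53.9 ± 2.32 CPM in Srgn-/- fat and 63.4 ± 9.12 CPM in Srgn+/+ fat. The last 3 had edgeR adjusted p of 0.338 to 0.377.

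Of 31 tested genes of adrenergic and thyroid signalling, 11 had higher and 20 lower values (median log2 fold change -0.10). Adcy9, an adenylyl cyclase, had 19.3 ± 2.14 CPM in Srgn-/- fat and 27.4 ± 4.06 CPM in Srgn+/+ fat with no overlap (log2 fold change -0.50, SE 0.126, edgeR adjusted p = 0.196; DESeq2 adjusted p = 0.0375). Prkar2b, the main regulatory subunit of protein kinase A in fat, had 94.7 ± 10.2 CPM in Srgn-/- fat and 77.4 ± 2.49 CPM in Srgn+/+ fat, also with no overlap (log2 fold change 0.29, edgeR adjusted p = 0.240). The p38 kinase gene Mapk14 had 115 ± 8.05 CPM in Srgn-/- fat and 134.6 ± 13.3 CPM in Srgn+/+ fat. Adcy5 had 249.8 ± 28.5 CPM in Srgn-/- fat and 300.2 ± 51.1 CPM in Srgn+/+ fat.

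Of 21 tested genes of secreted factors, 11 had higher and 10 lower values (median log2 fold change 0.01). Ptgds, prostaglandin D synthase, had 42.8 ± 42.9 CPM in Srgn-/- fat and 12.1 ± 6.21 CPM in Srgn+/+ fat (edgeR adjusted p = 0.299), and it also stands in the list of epididymis genes. Epdr1 had 19.8 ± 2.85 CPM in Srgn-/- fat and 25.4 ± 5.05 CPM in Srgn+/+ fat.

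Routes of heat production without UCP1 were represented by 19 tested genes, 11 with higher and 8 with lower values (median log2 fold change 0.05). Slc25a4, the ADP/ATP carrier of muscle and heart, had 436 ± 20.9 CPM in Srgn-/- fat and 356 ± 30.8 CPM in Srgn+/+ fat with no overlap (log2 fold change 0.29, SE 0.0863, edgeR adjusted p = 0.238; DESeq2 adjusted p = 0.0322). Gamt, the enzyme that completes creatine synthesis, had 161 ± 9.38 CPM in Srgn-/- fat and 131 ± 13.0 CPM in Srgn+/+ fat, again with no overlap (log2 fold change 0.29, edgeR adjusted p = 0.247). Ucp3, the uncoupling protein of muscle, had 89.4 ± 11.3 CPM in Srgn-/- fat and 64.9 ± 16.1 CPM in Srgn+/+ fat (edgeR adjusted p = 0.303). Gk had 41.6 ± 7.53 CPM in Srgn-/- fat and 28.7 ± 12.2 CPM in Srgn+/+ fat.

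Relatives of the members were counted in a list of their own, where 6 of 12 tested had higher values and 0 passed in edgeR (median log2 fold change -0.02). Among the 12, 1 had no overlap between the genotypes, against 2.78% of all tested genes. Cideb, the relative of Cidea best known from liver, had 7.37 ± 2.97 CPM in Srgn-/- fat and 3.11 ± 1.27 CPM in Srgn+/+ fat, with every Srgn-/- library at 5.36 CPM or more and every Srgn+/+ library at 5.28 CPM or less (log2 fold change 1.24, SE 0.317, edgeR adjusted p = 0.197; DESeq2 adjusted p = 0.0265). Cpt1c, the brain-type carnitine palmitoyltransferase, had 3.51 ± 0.880 CPM in Srgn-/- fat and 2.14 ± 0.604 CPM in Srgn+/+ fat (edgeR adjusted p = 0.346).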

How the data were processed

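Total RNA of 10 fat samples was made into Ion AmpliSeq mouse transcriptome libraries and read on an Ion S5 XL sequencer, per the labels' protocols. Build mm9 is named in the submitters' processing notes; no aligner or read counter is named in the sources at hand. The authors deposited raw counts (whole reads per amplicon) and RPM values, which equal counts over column totals.

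Counts were analysed in R 4.3.3 with edgeR 4.0.16: filterByExpr (minimum count 10, minimum total 15) kept 12719 of 23930 genes, TMM factors, robust quasi-likelihood test, two-sided, no covariate, Benjamini-Hochberg threshold 0.05. The procedure was tested on simulated counts with set fold changes, all larger than those of the tested members. Its power for changes as small as theirs was not tested. Alternatives used DESeq2 1.42.0, limma 3.58.1, other scalings and filters, and fewer libraries. Isoform ratios used exact permutation and pairs of genes used permutation. The SE is the fold change over the square root of F. The labels name no animals, so p-values measure the spread between samples. The members, lists and tests were chosen with earlier results of these data known. Named were all members, 3 isoforms, the 4 smallest p per list and the 5 genes most like Cidea or Ucp1. A gene that this rule names is not reported here. The planned Cpt1b ratio was not run.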

Additional observations from a re-analysis of the deposited data

How the results depend on the processing

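In all 19 alternatives to the edgeR fit, 0 members passed, and their lowest adjusted p was 0.141 (tools as named under processing). The median log2 fold change of the tested members stayed between 0.17 and 0.50. Over all genes, DESeq2 called 226, limma-voom 10 and edgeR with no low-count filter 3, against 1 in the edgeR fit with the filter, and 1 to 2 leaving out 1 library. Of the pathway genes DESeq2 called 3 and the other alternatives 0. Other scalings moved the median of all genes by at most 0.0509 (log2). Fold changes near 0 changed sign with single libraries, with log2 ranges of -0.14 to 0.18 for Ppargc1b, -0.048 to 0.45 for Dio2 and -0.045 to 0.51 for Ebf2. Without the 3 libraries with most epididymis RNA, Ppargc1b was -0.26 and Ebf2 -0.20; the cause was not tested. The Cox7a1 over Cox7a2 difference was 0.58 to 0.81 leaving out 1 library and 0.58 without the epididymis libraries, where 3 against 4 cannot pass. It was 0.76 with 0.1 CPM added to each level in place of 1, and 0.47 with 5 CPM added. The number of member pairs past the threshold was 0 to 2 leaving out 1 library, 0 without the epididymis libraries and 1 with the authors' RPM. Counts of 1 to 9 reads limit Ucp1. No paired analysis was possible because the labels give no replicate numbers that the genotypes share.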

Other observations

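Several further genes of thermogenic fat differed widely between animals of both genotypes; they were chosen after their values were seen. Adrb3, the beta-3 adrenergic receptor of fat cells, had 51.1, 242, 209, 100.02 and 135 CPM in Srgn-/- 1 to 5, against 435, 110.2, 84.7, 105 and 81.3 CPM in Srgn+/+ 1 to 5. Srgn+/+ 1 and Srgn-/- 2 were highest, and these are the 2 animals with the lowest Dio2 level. Otop1, a proton channel found in brown fat, ran the other way, with 32.1, 5.83, 10.6, 31.8 and 22.6 CPM in Srgn-/- 1 to 5, against 1.35, 27.8, 33.3, 30.1 and 38.9 CPM in Srgn+/+ 1 to 5. The summed level of macrophage genes was likewise highest in Srgn+/+ 5, Srgn+/+ 3 and Srgn-/- 1, at 9055, 6267 and 5506 CPM. It was lowest in Srgn-/- 2 and Srgn+/+ 1, at 2640 and 2399 CPM, the animals highest for Adrb3. The part of macrophages in these levels was not tested. Elovl3, a fatty acid elongase induced in cold-exposed brown fat, had 2.65, 0.220, 1.67, 5.23 and 7.76 CPM in Srgn-/- 1 to 5, against 0.0962, 1.53, 6.70, 4.23 and 3.98 CPM in Srgn+/+ 1 to 5. The lowest Elovl3 and Otop1 values again belonged to Srgn+/+ 1 and Srgn-/- 2. Slc36a2, an amino acid transporter used as a brown fat surface marker, was lowest in the same animals, at 395 CPM in Srgn-/- 2 and 263 CPM in Srgn+/+ 1, against 522 to 928 CPM in the other Srgn-/- libraries and 527 to 786 CPM in the other Srgn+/+ libraries.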
